A study of Mus musculus with 8 samples.

Results

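The AP-1 family was followed in quiescent NIH3T3 cells that were given fresh serum, with or without cordycepin. The members were the 8 genes Fos, Fosb, Fosl1, Fosl2, Jun, Junb, Jund and Atf3, chosen by name, and every non-control probe that carried one of these names was used. This choice was made with earlier results of these data known, so counts of members called are a description only. The members were represented by 9 of the 55681 probes and by 8 of the 35715 gene names on the array. 7 members had a single probe and Fosl2 had 2 probes. NIH3T3 is an immortalised line of mouse embryonic fibroblasts, and cordycepin is a deoxy analogue of adenosine. All cells were plated in 15 cm dishes in 10% newborn bovine serum and then kept in 0.5% serum for 24 h. The cordycepin + serum group (n = 3 arrays) received 20 µM cordycepin in DMSO, with serum added 60 min later as 0.1 volume. By the labels, RNA was thus taken after 90 min of compound and 30 min of serum. The serum group (n = 3) received 0.1% DMSO in place of cordycepin on the same schedule. The study's figure legend instead describes 90 min of compound or vehicle before the 30 min of serum. The no serum group (n = 2) received DMSO and no fresh serum, and the labels do not give the time of its vehicle. Cordycepin was not given without serum on any array, and every cordycepin value below belongs to serum-treated cells.

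AP-1 is a dimer of basic leucine zipper (bZIP) proteins. Fos proteins cannot pair with themselves and bind DNA as partners of a Jun protein, whereas Jun proteins can also pair with each other, and ATF3 pairs with itself or with Jun proteins. In resting fibroblasts, growth factors in serum activate ERK and other kinases, which act on factors already bound at immediate early genes such as Fos, so that transcription starts without new protein synthesis. The resulting mRNAs are short-lived, and the later members of the family, Fosl1 above all, are themselves known as targets of AP-1.

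The 120 bases before the RefSeq start (mouse build GRCm38.p6) of the 4 members below are shown because they include the members with the largest serum responses and the main partner of Fos, Jun, and because each holds a sequence related to the binding site of ATF, CREB and AP-1 proteins. Capitals mark TGACGT in Fos and Atf3 (in Atf3 on the opposite strand, so that it reads ACGTCA), TGACGCAA in Fosb, TGACATCA in Jun, and also TATAAA in Fos and GGGCGG in Fosb, while GGGCGG on the opposite strand is left in lower case, and each window is written 5′ to 3′ on the strand of its gene.
Fos (chr12:85473770-85473889, + strand): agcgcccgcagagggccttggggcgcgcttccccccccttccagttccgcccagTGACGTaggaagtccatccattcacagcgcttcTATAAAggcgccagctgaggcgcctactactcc
Fosb (chr7:19310046-19310165, − strand): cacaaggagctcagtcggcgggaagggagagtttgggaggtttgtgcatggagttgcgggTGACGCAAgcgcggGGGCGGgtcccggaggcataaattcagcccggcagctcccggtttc
Jun (chr4:95052223-95052342, − strand): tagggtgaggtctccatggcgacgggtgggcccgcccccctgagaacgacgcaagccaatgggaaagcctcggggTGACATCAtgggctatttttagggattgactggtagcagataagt
Atf3 (chr1:191183334-191183453, − strand): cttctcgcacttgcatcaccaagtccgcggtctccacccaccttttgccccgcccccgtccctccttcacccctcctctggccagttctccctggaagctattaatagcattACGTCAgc

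RefSeq windows of 300 bases, 250 before the start and 50 after it, were at hand for 7 of the 8 members. Fosl1 had no window, so its promoter was not searched. Motifs were searched on both strands. TGACGT lay 66 to 61 bases before the start in Fos and 8 to 3 bases before it in Atf3, and 7.51% of the 32851 promoters in the table held it. TGACGCAA lay 60 to 53 bases before the start of Fosb (0.49% of all promoters held it) and TGACATCA lay 45 to 38 bases before the start of Jun (3.62%). These 3 motifs were picked after the sequences had been read, and every TGACGTCA would also count as TGACGT. Of the motifs listed earlier, GGGCGG was present in 5 of the 7 windows (35.7% of all promoters) and TATAAA in 2 of 7 (13.6%). TATAAA lay 33 to 28 bases before the start in Fos, but in Junb on bases 1 to 6 from the start onward. The 4 others, the CArG box bound by SRF, TGACGTCA, TGACTCA and CCGGAAGT, had no match among the 7 windows. They were held by 1.63%, 1.79%, 5.2% and 3.89% of all promoters. A match is a description of the letters in this window and not of a bound site. Bases further from the start were not searched, so a motif without a match here may still lie there.

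Expression is given as normalised log2 signal, that is the log2 of the background-corrected signal of a probe minus the 75th percentile of its array, so that a value of 1 is a signal 2-fold above that percentile. All 9 probes were well above background on all 8 arrays. Before scaling, the 75th percentile of signal lay between 302 on a cordycepin + serum array and 692 on a no serum array, 51.1% to 57.1% of probes were well above background, and no spot was saturated. Arrays of the same group correlated at r = 0.992 to 0.995 over the tested probes. All 10 fibroblast markers examined were well above background on all 8 arrays. Their median log2 fold change with cordycepin was 0.09. Calls required a log2 fold change of 1 or more in either direction together with an adjusted p under 0.05, in limma with Benjamini-Hochberg adjustment over all 30859 tested probes. Each array measured bulk RNA, so more transcript per cell and more cells with the transcript cannot be told apart.

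Serum raised 6 of the 8 members, namely Fos, Fosb, Fosl1, Jun, Junb and Atf3, and the other two, Fosl2 and Jund, were not called. Over all tested probes, 0.878% were called higher with serum. The median log2 fold change of the 8 members was 2.12, against −0.01 over all tested probes. The serum arrays lay above both no serum arrays for all 8 members, which 9.95% of tested probes also did. Fosb, Fos and Atf3 had the largest, the second largest and the third largest log2 fold change with serum of all tested probes.

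Among the Fos proteins, Fosb showed the largest response. Its probe (chr7:19888168-19888227, − strand, build mm9 as in the array files) read −1.32 and −1.73 without serum and 6.27, 6.32 and 6.57 with serum. The groups were far apart, and the log2 fold change was 7.91 ± 0.18 (SE), a 241-fold rise (limma adjusted p = 2.74e-06). Fos, the founding member of the family and a standard marker of the immediate early response, was read by a probe at chr12:86817900-86817959 on the + strand, printed in 10 spots on each array. It read 1.53 and 0.63 without serum and 5.96, 5.75 and 6.12 with serum, a log2 fold change of 4.86 ± 0.28 (limma adjusted p = 0.000172). The no serum arrays differed more from each other than the serum arrays did. The SD between the 10 Fos spots of an array was 0.03 to 0.08, against an SD between arrays of 0.19 to 0.64 within the groups.

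Fosl1 and Fosl2 encode FRA1 and FRA2, Fos proteins without the C-terminal activation domain of Fos. Fosl1 (chr19:5455496-5455555, + strand) read 2.18 and 2.00 without serum and 3.45, 3.97 and 3.38 with serum, and rose by 1.51 ± 0.22 on the log2 scale (limma adjusted p = 0.0143). This call was lost without either no serum array, with an adjusted p of 0.125 without replicate 2 and 0.0533 without replicate 1. The adjusted p ranged from 0.00136 to 0.856 over all settings tried. Fosl2 (chr5:32460076-32460135, + strand) read 4.73 and 4.76 without serum and 5.39, 5.88 and 5.32 with serum. These arrays did not overlap, but the log2 fold change of 0.78 ± 0.18 (95% interval 0.37 to 1.20) did not pass the test (limma adjusted p = 0.0771).

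The Jun family covered a wide range. Junb (chr8:87501881-87501940, − strand), whose product activates more weakly than Jun on many promoters, read −0.39 and −0.66 without serum and 2.08, 2.27 and 1.99 with serum. The rise of Junb was 2.64 ± 0.18 on the log2 scale (limma adjusted p = 0.000377). Jun (chr4:94716928-94716987, − strand), the main partner of Fos, read 5.62 and 5.77 without serum and 7.09, 7.38 and 7.43 with serum, a rise of 1.61 ± 0.15 (limma adjusted p = 0.00154). With the arrays centred on spike-in controls, the Jun rise was 1.27 and was not called (adjusted p = 0.856, against a range of 9.37e-05 to 0.856 over all settings). Jund, known for its steady expression in resting cells, was read at chr8:73224436-73224495 on the + strand. It read 4.74 and 4.74 without serum and 5.01, 5.23 and 5.26 with serum, a log2 fold change of 0.42 ± 0.12 (95% interval 0.14 to 0.70, limma adjusted p = 0.166).

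Atf3, a stress-induced member of the ATF and CREB group that can repress transcription as a homodimer, was read by a probe at chr1:192994547-192994606 on the − strand. It read −0.91 and −1.57 without serum and 3.16, 3.34 and 3.87 with serum. The rise of 4.70 ± 0.26 on the log2 scale was 26.0-fold (limma adjusted p = 0.000146), close in size to that of Fos.

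**Figure D1:**
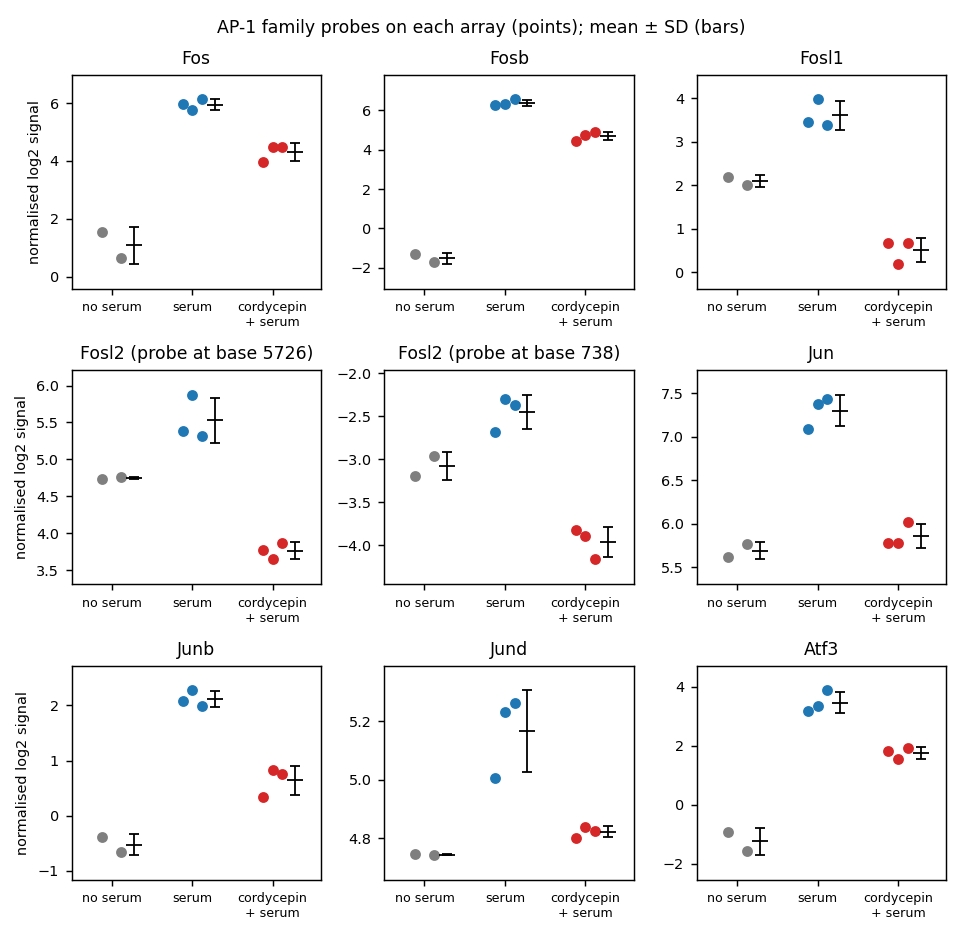
Normalised log2 signal of the 9 AP-1 probes (y axis, a scale of its own in each panel) in the no serum, serum and cordycepin + serum groups, with 1 point per array and the mean ± SD beside the points (n = 2, 3 and 3). The cordycepin + serum arrays lie between the other groups for Fos, Fosb, Jun, Junb, Jund and Atf3, and below the no serum arrays for Fosl1 and for both Fosl2 probes.

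Cordycepin lowered 7 of the 8 members in serum-treated cells, all but Jund. Over all tested probes, 2.99% were called lower and 7.56% higher with cordycepin. The median log2 fold change of the 8 members was −1.66, against 0.09 over all tested probes. All 8 members were lower in every cordycepin + serum array than in any serum array, as were 13.9% of tested probes. The study itself named Fos, Fosb, Jun and Junb as repressed on these arrays, so their direction here is not independent evidence. Of the 7 changes, 6 were of much the same size, with log2 fold changes between −1.77 and −1.44, and Fosl1 stood apart from them.

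Fosl1 read 0.68, 0.19 and 0.67 with cordycepin and serum, against 3.45, 3.97 and 3.38 with serum alone. It fell by 3.09 ± 0.20 on the log2 scale, or 8.50-fold (limma adjusted p = 3.54e-05), and was 15th from the lowest of the tested probes. The 95% interval of this change, −3.55 to −2.62, lay wholly below the intervals of the other members, the lowest of which reached −2.24. Fosl2 read 3.78, 3.64 and 3.87 with cordycepin and 5.39, 5.88 and 5.32 without it, and fell by 1.77 ± 0.16 (limma adjusted p = 0.000147).

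The second Fosl2 probe, at chr5:32455088-32455147, began at base 738 of the transcript and the first at base 5726. It was dim, at −3.19 and −2.96 without serum, −2.68, −2.30 and −2.37 with serum, and −3.82, −3.89 and −4.16 with cordycepin and serum. It fell by 1.51 ± 0.15 with cordycepin (limma adjusted p = 0.000243). The changes of both probes differed by −0.26 (exact permutation test, two-sided, p = 0.2), and since the smallest p possible is 0.1 this design could not show a difference between the probes. With serum the second probe differed by 0.62 on the log2 scale and, like the first, was not called (limma adjusted p = 0.139).

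Fos read 3.95, 4.48 and 4.48 with cordycepin and serum, all below the lowest serum array at 5.75 and above the higher no serum array at 1.53. It fell by 1.64 ± 0.25 on the log2 scale, or 3.11-fold (limma adjusted p = 0.00239). Fosb read 4.46, 4.73 and 4.90 with cordycepin, against 6.27 to 6.57 with serum alone, and fell by 1.69 ± 0.17 (limma adjusted p = 0.000222). Both genes thus kept a wide gap to the no serum arrays.

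Jun read 5.78, 5.79 and 6.02 with cordycepin and serum, and fell by 1.44 ± 0.13 (limma adjusted p = 0.000161). These 3 arrays were close to the no serum arrays at 5.62 and 5.77. With spike-in centring the Jun change was −1.48 with an adjusted p of 0.0561, against a range of 8.20e-06 to 0.0561 over all settings. The SE of the Jun change was 0.51 with this centring, against 0.13 in the main fit. Junb read 0.35, 0.83 and 0.76 and fell by 1.47 ± 0.16 (limma adjusted p = 0.000385). Jund read 4.80, 4.84 and 4.83, below its serum arrays at 5.01 to 5.26 without overlap. Its log2 fold change of −0.35 ± 0.11 (95% interval −0.59 to −0.10) did not pass the test (limma adjusted p = 0.0610). Atf3 read 1.82, 1.53 and 1.92 with cordycepin, and fell by 1.70 ± 0.24, or 3.25-fold (limma adjusted p = 0.00136).

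Within each of the rows of the slide, with 1 or 2 arrays of a group, every member was lower with cordycepin, by −3.02 to −0.19 on the log2 scale in the first row and −3.00 to −0.42 in the second.

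**Figure D2:**
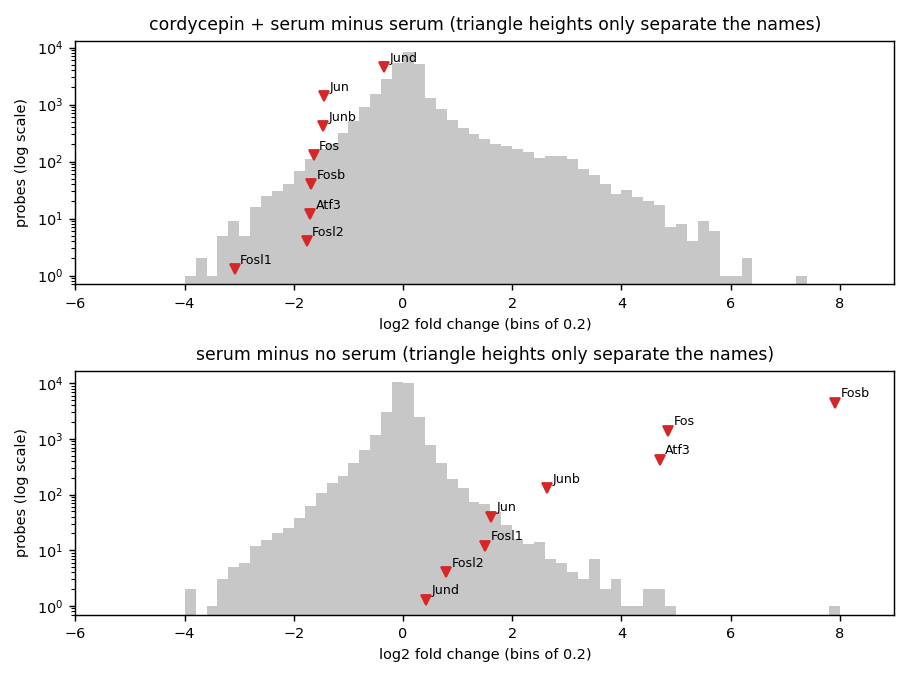
Number of tested probes (y axis, log scale) by log2 fold change (x axis, bins of 0.2) for cordycepin + serum minus serum (top) and serum minus no serum (bottom), with the AP-1 members as triangles whose height carries no value. Fosl1 lies at −3.09 and Jund at −0.35 in the top panel, and Fosb lies alone at 7.91 in the bottom panel.

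Setting the cordycepin + serum arrays against the no serum arrays gave the distance of each member from its level in starved cells. Without arrays of cordycepin alone, a change in that starting level and a remaining serum response cannot be told apart. This comparison uses the same arrays as those above, so its values are only set beside theirs. Compared with no serum, 4 members were called higher, namely Fos, Fosb, Junb and Atf3 (6.46% of tested probes were called higher), Fosl1 was called lower (3.08% were called lower), and Fosl2, Jun and Jund were not called. The median of the 8 members was 0.67, against 0.07 over all tested probes.

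Fosb was 6.22 ± 0.18 above no serum on the log2 scale, or 74.8-fold (limma adjusted p = 9.34e-06). Fos was 3.22 ± 0.28 above it, or 9.34-fold (limma adjusted p = 0.000203), and Atf3 3.00 ± 0.26, or 8.01-fold (limma adjusted p = 0.000203). Junb was 1.17 ± 0.18 higher (limma adjusted p = 0.00329), and this call was lost with spike-in centring (0.79, adjusted p = 0.875, range 0.000959 to 0.875 over all settings). These 4 were also the members with the largest serum responses.

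Jun differed from no serum by 0.17 (95% interval −0.18 to 0.51) and Jund by 0.08 (95% interval −0.20 to 0.36), with limma adjusted p-values of 0.517 and 0.726. Both intervals span 0, and their direction turned with spike-in centring, to −0.21 for Jun and −0.30 for Jund, while Jund was also at −0.0020 with quantile normalisation. Every cordycepin + serum array of Jun lay above both no serum arrays, the lowest at 5.78 against 5.77.

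Fosl1 was below its level without serum, by −1.58 ± 0.22 on the log2 scale (limma adjusted p = 0.00220). All 3 cordycepin + serum arrays, at 0.19 to 0.68, were under the lower no serum array at 2.00. Fosl2 was at −0.98 ± 0.18 (limma adjusted p = 0.00723) and just missed the fold change threshold, and its second probe was at −0.88 ± 0.17 (limma adjusted p = 0.00906). Fosl2 was called lower in 4 of the 21 other settings, including normexp background correction (−1.03) and quantile normalisation (−1.05).

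**Figure D3:**
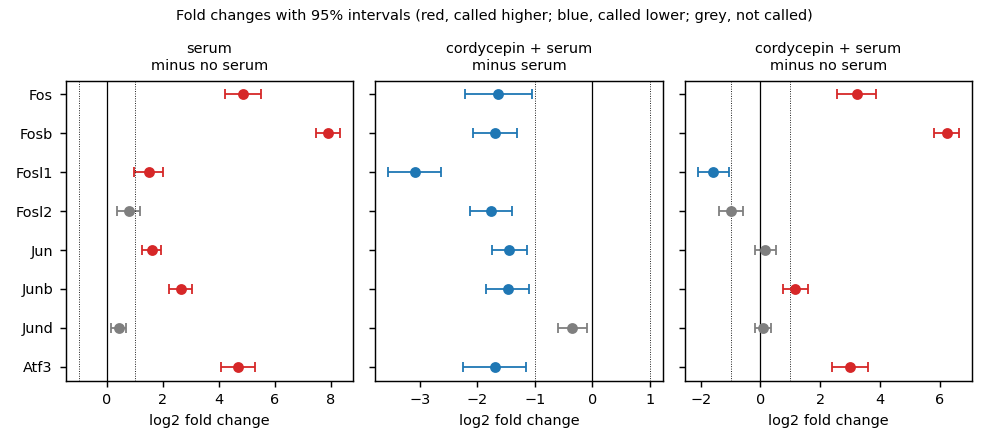
Log2 fold change (x axis) with its 95% interval for each AP-1 member in serum minus no serum, cordycepin + serum minus serum, and cordycepin + serum minus no serum, with red for called higher, blue for called lower and grey for not called. Dotted lines mark the fold change threshold of 1, and in the right panel the members spread from Fosl1 at −1.58 to Fosb at 6.22.

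The members thus differed in their course over the 8 arrays, as their correlations describe. Fos correlated with Atf3 at r = 0.990 and with Fosb at r = 0.983, and Fosl1 with Fosl2 at r = 0.994. Fosb with Fosl2 gave only r = 0.17, and Jun with Jund gave r = 0.964. These are correlations over 8 arrays in 3 groups and reflect mainly the group means.

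For each member, the nearest 3 of 12441 other RefSeq mRNA genes were taken by Pearson's r over the 8 arrays. Arl4d, a small GTPase of the ARF group, was the closest gene to Fos (r = 0.984), Fosb (r = 0.989) and Atf3 (r = 0.985), and Ier3 was among the nearest 3 of each. Plcxd2 was the closest to Fosl2 (r = 0.997) and the second closest to Fosl1 (r = 0.990), after the homeobox gene Nkx2-5 (r = 0.991). Zfp36, which encodes the mRNA-destabilising protein tristetraprolin, was the closest to Junb (r = 0.995), with Ier2 and Arc next. The zinc finger gene Zfp281 was among the nearest 3 of both Jun (r = 0.985) and Jund (r = 0.939), and the anti-proliferative gene Btg2 was the third for Jun (r = 0.982).

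Of 14 other bZIP genes that can pair with AP-1 proteins, 11 could be tested and 3 were above background on no array. With serum, 1 of the 11 was called higher (0.878% of all tested probes), and with cordycepin 1 was called lower (2.99%). The 1 gene called higher with cordycepin (7.56%) was Batf, and that call is no support, since it rests on the arrays that admitted Batf to the test. Serum raised Maff, a small Maf protein without an activation domain, by 1.68 ± 0.18 (limma adjusted p = 0.00292), and with cordycepin it fell by 1.49 ± 0.16 (limma adjusted p = 0.000332). Batf, best known from lymphocytes, was well above background only on the 3 cordycepin + serum arrays, where it was at least 1.59-fold higher than with serum (measured means −4.52 and −6.93). This bound, 0.67 on the log2 scale, was under the fold change threshold. Batf entered the test only through these arrays, so no p-value is given for it. The bound sets its mean against the higher of its own value and the lowest value of a probe well above background on each serum array. Over the 10 genes well above background on all arrays, the median change was 0.11 with serum and −0.19 with cordycepin, against −0.01 and 0.09 over all tested probes.

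Of 25 regulators upstream of Fos and Jun, comprising SRF and its cofactors, MEF2 factors, CREB1, the ERK and JNK kinases, the MAP2 kinases that activate them, and the RSK and MSK kinases, 23 could be tested. Srf, whose product binds the serum response element of Fos, was the one gene called with serum, at 1.42 ± 0.13 (limma adjusted p = 0.00154). With cordycepin its value was −0.65 ± 0.12 (limma adjusted p = 0.00525), which was under the fold change threshold. Mef2d, a MADS box factor that can act on the Jun promoter, was the one gene called with cordycepin, at −1.38 ± 0.11 (limma adjusted p = 9.04e-05). Of all tested probes, 0.878% were called higher with serum and 2.99% lower with cordycepin. The median change of the 23 genes was 0.05 with serum and −0.16 with cordycepin, against −0.01 and 0.09 over all tested probes. These are mRNA levels, and kinase activity was not measured.

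Of 17 genes known as AP-1 targets in fibroblasts, 14 could be tested, of which serum raised 5 and cordycepin lowered 4, where 0.878% of all tested probes were called higher with serum and 2.99% lower with cordycepin. Ptgs2, the inducible cyclooxygenase, rose by 2.96 ± 0.19 with serum (limma adjusted p = 0.000296) and fell by 2.74 ± 0.17 with cordycepin (limma adjusted p = 2.88e-05). Its mean was 2.99 ± 0.16 (SD, n = 2) without serum, 5.95 ± 0.16 (n = 3) with serum and 3.21 ± 0.30 (n = 3) with cordycepin and serum. Hbegf, a ligand of the EGF receptor, rose by 1.47 ± 0.28 with serum and fell by 1.75 ± 0.25 with cordycepin (limma adjusted p = 0.0389 and 0.00161). Plaur, the urokinase receptor, rose by 1.40 ± 0.23 and fell by 1.74 ± 0.21 (0.0217 and 0.000603), and urokinase itself, Plau, rose by 1.01 ± 0.18 and fell by 1.09 ± 0.16 (0.0291 and 0.00186). Lif was the fifth gene raised by serum, at 1.38 ± 0.20 (limma adjusted p = 0.0119), and its value with cordycepin was −0.65. The median over the 14 genes was 0.28 with serum and −0.38 with cordycepin, against −0.01 and 0.09 over all tested probes. The list was chosen with earlier results of these data known, so its counts are a description only. Whether these changes depended on AP-1 was not tested.

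**Figure D4:**
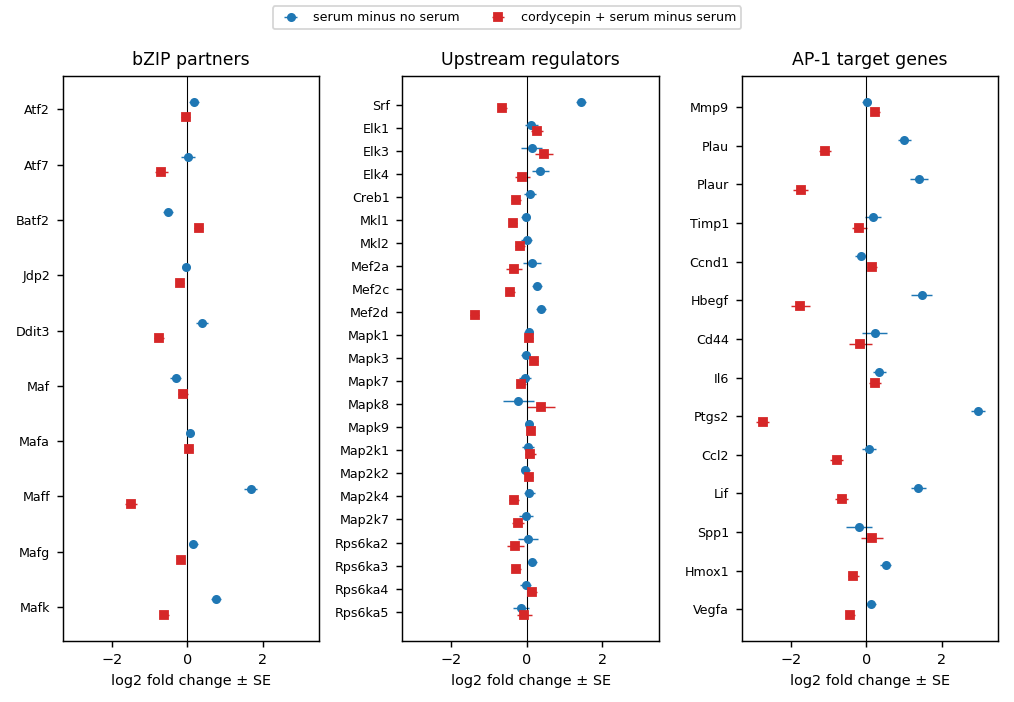
Log2 fold change ± SE (x axis) of the bZIP partners, upstream regulators and AP-1 target genes that were well above background on all arrays, for serum minus no serum (blue circles) and cordycepin + serum minus serum (red squares). Maff, Srf, Ptgs2, Hbegf, Plaur and Lif lie furthest to the right in blue, and Ptgs2, Hbegf, Plaur, Maff and Mef2d furthest to the left in red.

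Markers of other cell types were read on the same arrays. Of 4 endothelial, 5 epithelial and 3 muscle markers, 3, 1 and 1 could be tested, and none was called with cordycepin. With cordycepin, 7.56% of all tested probes were called higher and 2.99% lower. The 3 tested endothelial markers were well above background on all arrays, with a median change of 0.005 with cordycepin. Of 5 leukocyte markers, 4 could be tested, and Cd68, a lysosomal protein of macrophages, was called higher with cordycepin at 3.02 ± 0.21 (limma adjusted p = 4.79e-05). The summed signal of these 5 markers, relative to the 75th percentile of the array on a linear scale, was 16.7 to 21.7 without serum, 18.0 to 20.7 with serum and 31.5 to 39.5 with cordycepin and serum. Most of this sum came from Itgam and Cd68, and the changes with cordycepin that were not called were 0.62 for Itgam, −0.30 for Cd14 and 0.12 for Cd3e. Ptprc, the defining leukocyte marker, was well above background on only 3 of the 8 arrays. The part of these changes in the results for the AP-1 members was not tested.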

How the data were processed

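Total RNA of 8 cultures was labelled with Cy3 and read on Agilent mouse arrays of 1 colour. The deposited files hold spot intensity on a linear scale, which the authors extracted with Feature Extraction 10.7.3.1, with local background subtraction and spatial detrending per the file headers. Outlier and control spots were left out, spots of a probe were averaged, and log2 values were centred on the 75th percentile of each array, so a shift of most transcripts would not be seen. A probe entered the test where all arrays of some group had it well above background, and limma 3.58.1 (R 4.3.3) fitted 1 mean per group, with two-sided p-values. The labels describe independent cultures in triplicate, and 2 for no serum. All arrays shared 1 slide and 1 scan, and their number limits the precision. The Fosl2 probe with the highest mean represented the gene. The members and gene lists, including the likeness rule and up to 4 called examples a list, were chosen with earlier results of these data known. Background correction, normalisation, filters, thresholds, blocks, and leaving out arrays were varied. The calculation was tested on simulated data. The array flags were the files' own calls, and promoter sequences came from RefSeq.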

Additional observations from a re-analysis of the deposited data

How the results depend on the processing

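The members and comparisons were computed under 21 other settings, 1 of which, the 75th percentile taken over spots, was added after the data had been seen. Of the 504 single fold changes, 489 kept their direction and their side of the threshold. The count of members lower with cordycepin was 6 to 7 and of those above no serum despite cordycepin 3 to 4. The count higher with serum was 4 to 6, with 5 to 6 when 1 array was left out. The lowest count of each came with spike-in centring, although the labels do not say whether or at which step a spike-in mix was added. This centring moved the median of all tested probes by −0.34 for serum and by −0.38 for cordycepin + serum against no serum. Its calls lost were Jun with cordycepin (−1.48), Fosl1 (1.17) and Jun (1.27) with serum, and Junb against no serum (0.79), and the direction turned for Jun (−0.21) and Jund (−0.30) against no serum, as for Jund with quantile normalisation (−0.0020). Fosl1 with serum also lost its call with no filter on dim probes (1.51, limma adjusted p = 0.0757) and without a no serum array (1.41 to 1.60), where the lone array was assumed to vary like the other groups. Fosl2 against no serum passed the threshold with normexp background (−1.03), with quantile normalisation (−1.05), with no minimum fold change (−0.98) and without cordycepin + serum replicate 3 (−1.04). With the replicate number as a block, 5 members were higher with serum, Fosl1 being lost (1.52, limma adjusted p = 0.0540). The main fit did not pair arrays by number, and the deviations of same-numbered arrays from their group means correlated at −0.17 to 0.23. With 2 or 3 arrays in a group these deviations depend on each other, so the check cannot exclude a shared batch. Over all tested probes, calls with cordycepin numbered 2333 higher and 922 lower, against 891 and 408 with normexp background, 1949 and 1285 with quantile normalisation and 1577 and 428 with spike-in centring, and over all settings they ranged from 891 to 3614 and from 408 to 2379. With serum they numbered 271 and 277, against 174 and 58 with normexp background and 54 and 155 with spike-in centring, with ranges of 54 to 400 and 58 to 606. For cordycepin + serum against no serum they numbered 1994 and 949, against 1036 and 349 with normexp background and 829 and 611 with spike-in centring, with ranges of 829 to 2799 and 349 to 1898. The causes were not tested.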
